A study of Mus musculus with 6 samples.

Results

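The genes described here are the clustered histone genes of the mouse, taken as every row of the deposited gene table whose symbol begins with Hist1h, Hist2h, Hist3h or Hist4h. The rule found 52 of 17382 genes, and it used the symbol alone and no measured value. By class there were 5 H1, 10 H2A, 15 H2B, 11 H3 and 11 H4 genes. The Hist1 cluster on chromosome 13 held 41 of them, the Hist2 cluster on chromosome 3 held 7, the Hist3 cluster on chromosome 11 held 3, and Hist4h4 on chromosome 6 stood alone.

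H2A, H2B, H3 and H4 form the protein core around which DNA is wound, and H1 binds the DNA between cores. The clustered genes supply most of these proteins while DNA is replicated, and they are switched on in S phase by the coactivator NPAT. Most of their mRNAs carry no poly(A) tail: the transcript is cut after a short stem-loop, which the stem-loop binding protein SLBP recognises, and the mRNA is removed when replication ends. Histone genes outside the clusters, such as H3f3a and H3f3b, give ordinary polyadenylated mRNAs and are used in all phases of the cell cycle.

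RNA was sequenced from 6 cultures of bone marrow myeloid cells of C57BL/6 mice aged 2 months. Marrow was strained at 40 µm and grown for 3 days in α-MEM with 10% FBS and 40 ng/mL of mouse M-CSF, the growth factor of macrophages. In 3 cultures the mice carried PD-L1 flox/flox and lysozyme-Cre, which acts in myeloid cells, and in the other 3, labelled wild type, they were littermates with PD-L1 flox/flox and no Cre, so both groups share the floxed alleles. Libraries were made with a stranded total RNA kit from 4 µg of DNase-treated RNA, and the design text calls the samples biological triplicates. Levels are given in TPM, reads per length of gene scaled to a common total, so that levels of different genes can be set side by side.

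Reads counted in genes totalled 52355665 to 77318129 per library, and 11525 to 11680 genes reached 1 TPM in a library. Cd274, which encodes PD-L1, was no lower under the knockout label than in wild type. It had 19.3, 19.2 and 29.2 TPM there against 17.9, 15.5 and 23.7 TPM in those of wild type, with a log2 difference of 0.24 ± 0.22 (SE; limma adjusted p = 1.0), and which exons were floxed is not given in the sources used here. Lyz2, the lysozyme gene into which this Cre is commonly inserted, had 19100, 19400 and 13200 TPM under the knockout label against 26700, 27500 and 40400 TPM, without overlap. Its log2 difference was -0.87 ± 0.27 (SE), with an unadjusted p of 0.016 (limma), and it did not pass after adjustment. Groups did not overlap for 5.12% of all tested genes, and Lyz2 was named outside the naming rule given below. Macrophage and monocyte markers summed to 6878 to 9093 TPM, with none of the 11 at 0 in all libraries. The first principal component, with 44.3% of the variance, set knockout 1, knockout 2 and wild type 3 (-23.1, -17.4 and -30.1) apart from knockout 3, wild type 1 and wild type 2 (31.8, 19.8 and 19.1). Genotype therefore did not follow the main division of the libraries, and values are given below library by library.

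The stem-loop that marks a replication-coupled histone mRNA was looked for in the annotated transcripts. Of the members, 50 matched a transcript of GENCODE vM21 (GRCm38, the same coordinates as mm10). A 16-base element starting with GG and ending with CC, in which the first 6 bases can pair with the last 6 around a 4-base loop, was found after the stop codon of 37 of them. It lay 21 to 54 bases after the stop codon, with a median of 31. The same search found such an element in 729 of 21046 other coding genes, or 3.46%. Of the 13 members without it, 10 have fewer than 16 annotated bases after the stop codon, so that the element could not be in the annotated transcript. The remaining 3 are Hist1h2bc, Hist2h2be and Hist1h1a. Sites of 6 members are shown to let the element be compared between classes and between abundant and scarce genes; capitals mark the 16 bases of the stem-loop. They are read 5′ to 3′ on the strand of the gene and lie in the 3′ untranslated region.
Hist1h1c: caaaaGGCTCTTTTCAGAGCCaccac
Hist3h2a: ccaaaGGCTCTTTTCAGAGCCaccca
Hist1h2bg: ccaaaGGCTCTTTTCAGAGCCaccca
Hist1h4i: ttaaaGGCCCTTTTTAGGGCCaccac
Hist1h3g: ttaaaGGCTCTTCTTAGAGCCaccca
Hist1h2bb: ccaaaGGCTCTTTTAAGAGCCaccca
In GRCm38 these sites are chr13:23739507-23739532 (plus strand) for Hist1h1c, chr11:58955167-58955192 (plus) for Hist3h2a, chr13:23571838-23571863 (plus) for Hist1h2bg, chr13:22040961-22040986 (minus) for Hist1h4i, chr13:23535884-23535909 (plus) for Hist1h3g and chr13:23747198-23747223 (plus) for Hist1h2bb.

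The letters of the element divided by class. The form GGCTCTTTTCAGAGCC was in 20 members of the H1, H2A, H2B and H3 classes, and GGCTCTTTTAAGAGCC in 5 of the H2B and H3 classes. The H4 genes had other stems: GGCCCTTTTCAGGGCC in 5, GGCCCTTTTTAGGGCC in 2, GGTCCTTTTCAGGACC in 2 and GGCCCTTCTCAGGGCC in 1. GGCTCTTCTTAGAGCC was found in 1 H3 gene, Hist1h3g, and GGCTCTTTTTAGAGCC in 1 H2A gene, Hist2h2ac. The flanks and the stem of Hist3h2a and Hist1h2bg are the same in all 26 bases shown, although the genes belong to different classes and chromosomes. Hist1h2be, Hist1h1e and Hist1h3b have the same 26 bases too, so this form is not particular to those genes. For 34 of the 37 members with the element, the interval in the deposited table ends at most 8 bases after it, so that annotated sequence beyond that point was not counted.

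Clustered histone RNA made up little of these libraries. All 52 members together had 130, 87.4 and 62.6 TPM in the libraries labelled knockout against 62.9, 62.6 and 96.0 TPM in those of wild type. That was 3165, 2235 and 1392 reads against 1130, 1833 and 2482 reads. As a share of a library's reads counted in genes this was 0.00216% to 0.00431%. As a share of all histone TPM, clustered and unclustered, it was 4.37% to 8.85%. The sum was highest in knockout 1, wild type 3 and knockout 2, in that order, and the groups overlapped. In bulk RNA, fewer cells of a kind and less RNA per cell cannot be told apart, so these levels do not separate a small number of replicating cells from little histone mRNA in each. S phase genes, described below, summed to 2224 to 3737 TPM in the same libraries. How far the libraries kept RNA without a poly(A) tail also bears on the histone level and was not tested.

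Few members carried the sum. After the values had been seen, the members were divided at a mean of 1 TPM over the 6 libraries, which put 6 above and 46 below; Hist1h2bg with 1.68 TPM lay just above and Hist1h4d with 0.714 TPM just below. The 6 upper members held 90.0% of the summed TPM over all libraries, and 86.4% to 92.7% in single libraries. Each class but H3 had at least 1 of them: Hist1h1c for H1, Hist3h2a for H2A, Hist1h2bc, Hist2h2be and Hist1h2bg for H2B, and Hist1h4i for H4. Hist1h1c alone held 34.2% of the sum of all members.

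**Figure D1:**
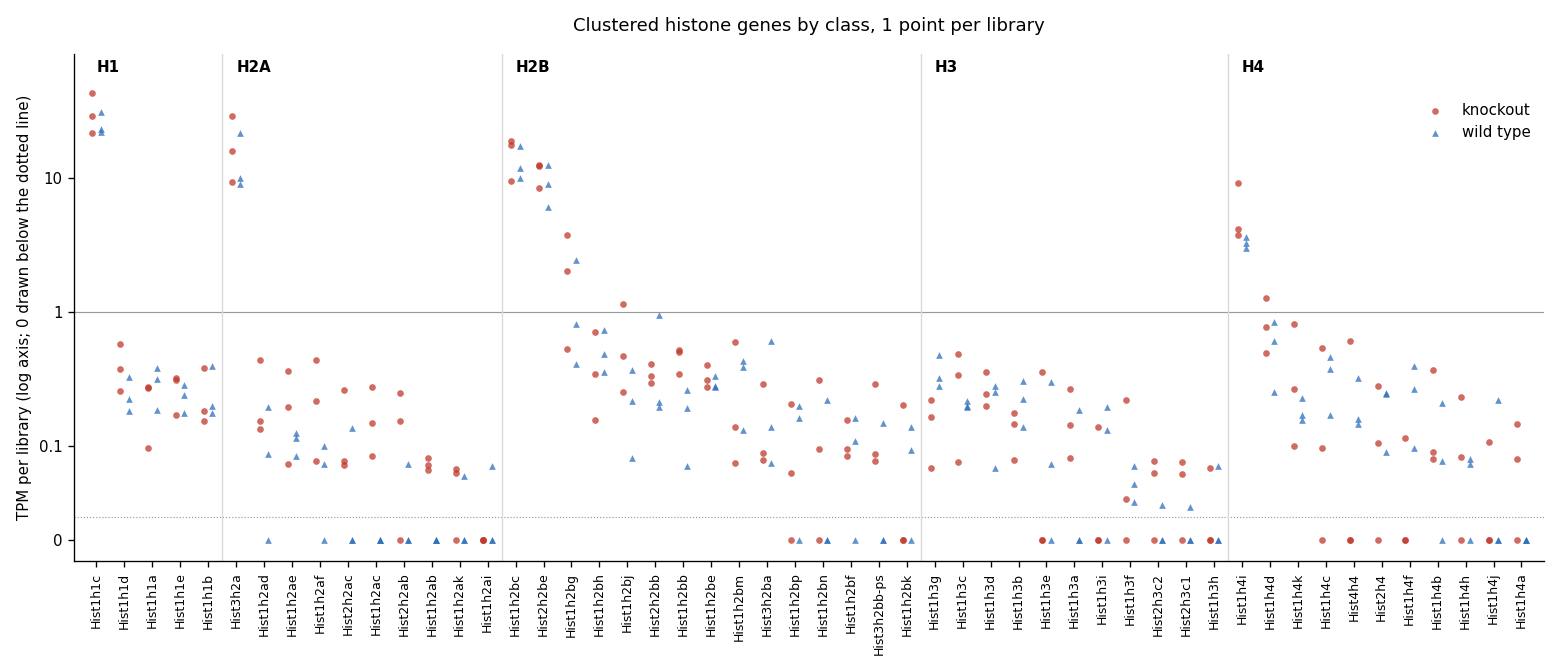
Level of each of the 52 clustered histone genes in TPM (log axis) in each library, grouped by class and ordered by mean; red circles are libraries labelled knockout, blue triangles wild type, and values of 0 are drawn below the dotted line. The 6 members with a mean of at least 1 TPM stand above the solid line, and 46 lie below it.

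Hist1h1c, a gene for the linker histone H1, was the most abundant member. Its place is chromosome 13, 23738807 to 23739531, on the plus strand. It had 43.5, 29.1 and 22.0 TPM in the libraries labelled knockout against 23.4, 22.4 and 31.2 TPM in those of wild type, from 359 to 933 reads. The highest values were in knockout 1 and wild type 3, and the lowest knockout library lay under every wild-type library. The means were 31.5 ± 10.9 and 25.6 ± 4.81 TPM (SD, n = 3 each), a log2 difference of 0.26 ± 0.26 (SE; limma adjusted p = 1.0). Without knockout 1 the difference was -0.0044.

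The other H1 genes were scarce. Hist1h1d had 6, 8 and 11 reads under the knockout label against 3, 8 and 5 in wild type, or 0.261, 0.376 and 0.584 against 0.183, 0.331 and 0.225 TPM, and a log2 difference of 0.52 ± 0.30. Hist1h1a had 6, 2 and 5 against 5, 9 and 4 reads, and a log2 difference of -0.36 ± 0.35. Both overlapped between the groups, and Hist1h1b and Hist1h1e had at most 9 reads in a library. Hist1h1c held 96.3% of the H1 sum, which was 44.6, 30.1 and 23.3 TPM against 24.3, 23.6 and 32.2 TPM.

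Hist3h2a was the H2A gene that was read in quantity. Its place is the Hist3 cluster on chromosome 11, 58954685 to 58955192, on the plus strand. The values were 29.3, 16.1 and 9.49 TPM in the libraries labelled knockout against 9.11, 10.1 and 21.9 TPM in those of wild type, from 98 to 440 reads. Knockout 1, wild type 3 and knockout 2 were high and the other 3 libraries lay within 9.11 to 10.1 TPM. The means were 18.3 ± 10.1 and 13.7 ± 7.11 TPM (SD, n = 3 each), a log2 difference of 0.38 ± 0.48 (SE; limma adjusted p = 1.0), and -0.03 without knockout 1. This gene held 95.1% of the H2A sum, and the other 9 H2A genes had means of 0.012 to 0.169 TPM.

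Of the scarce H2A genes, Hist1h2af had 3, 1 and 5 reads under the knockout label against 1, 0 and 1 in wild type, and a log2 difference of 1.04 ± 0.47. Hist1h2ad had 7, 2 and 2 against 1, 0 and 3 reads and a log2 difference of 0.85 ± 0.50. Both differences rest on single reads, and the groups overlapped. Hist1h2ac and Hist1h2ab, named after their values were seen, were read only in the libraries labelled knockout, with 4, 2 and 1 and with 1, 1 and 1 reads. An observed 0 is compatible with up to 3 reads (counting error only), so the 0 reads in each wild-type library bound no fold for these genes, and neither reached the filter for testing.

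The H2B class had 3 of the 6 upper members, and these held 90.0% of its sum. Hist1h2bc, at chromosome 13, 23684199 to 23692480, plus strand, had 19.2, 17.7 and 9.58 TPM in the libraries labelled knockout against 11.9, 10.1 and 17.6 TPM in those of wild type. Its means were 15.5 ± 5.16 and 13.2 ± 3.94 TPM (SD, n = 3 each), a log2 difference of 0.21 ± 0.32. Knockout 1, knockout 2 and wild type 3 were the high libraries, as for Hist3h2a. Hist2h2be, at chromosome 3, 96221121 to 96223738, plus strand, had the most reads of all members, 4422 in total, over a counted length of 2618 bases. It had 12.6, 12.3 and 8.51 TPM against 6.15, 9.14 and 12.5 TPM, with means of 11.1 ± 2.27 and 9.27 ± 3.18 TPM (SD, n = 3 each) and a log2 difference of 0.30 ± 0.28. Neither gene has the stem-loop in its matched transcript, and that of Hist2h2be has a poly(A) signal near its end.

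Hist1h2bg varied most among the upper members. It is at chromosome 13, 23571400 to 23571863, plus strand and had 3.79, 2.04 and 0.533 TPM in the libraries labelled knockout against 0.814, 0.416 and 2.48 TPM in those of wild type, from 52, 26, 6, 8, 6 and 33 reads. The 3 high libraries were again knockout 1, wild type 3 and knockout 2. Its log2 difference was 0.70 ± 0.81 (SE), and 0.13 without knockout 1 and 1.43 without knockout 3, with means of 2.12 ± 1.63 and 1.24 ± 1.10 TPM (SD, n = 3 each).

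Among scarce H2B genes, Hist1h2bb had the smallest unadjusted p of the 34 tested members. In the authors' deposited table, which tests all 52, Hist1h2ac has the smallest, 0.00292, against 0.0488 for Hist1h2bb. Hist1h2bb had 5, 7 and 6 reads under the knockout label against 2, 4 and 1 in wild type, or 0.345, 0.521 and 0.504 against 0.193, 0.262 and 0.0713 TPM. Every knockout library lay above every wild-type library. The log2 difference was 1.07 ± 0.33 (SE), with an unadjusted p of 0.0153 and an adjusted p of 1.0 (limma). Hist1h2bj had the same difference, 1.07 ± 0.55, from 6, 3 and 12 against 2, 5 and 1 reads, with overlapping groups. Hist1h2bh lay the other way at -0.43 ± 0.45, from 11, 5 and 2 against 4, 8 and 11 reads. Hist1h2be, named after its values were seen, had up to 30 reads in a library but only 0.314 TPM on average, over a counted length of 2510 bases.

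No H3 gene reached 1 TPM. The 11 H3 genes together had 2.13, 0.925 and 1.14 TPM in the libraries labelled knockout against 2.07, 1.13 and 0.984 TPM in those of wild type, from 13 to 37 reads per library. The sums overlapped and their log2 ratio, taken as the difference between the groups' mean log2 sums, was -0.01. Hist1h3g had 1, 3 and 2 reads under the knockout label against 5, 5 and 4 in wild type, or 0.0687, 0.222 and 0.167 against 0.480, 0.327 and 0.284 TPM. Every knockout library lay below every wild-type library; the log2 difference was -0.90 ± 0.31 (SE), with an unadjusted p of 0.0251 and an adjusted p of 1.0 (limma). Hist1h3c had 7, 1 and 4 against 2, 3 and 3 reads, a log2 difference of 0.23 ± 0.45, and -0.13 without knockout 1. Hist1h3d had 3, 5 and 3 against 3, 4 and 1 reads, a log2 difference of 0.36 ± 0.37, and -0.02 without wild type 3. Hist1h3a lay at 0.84 ± 0.50, from 4, 2 and 1 against 2, 0 and 0 reads. Hist2h3c1 and Hist2h3c2, named after their values were seen, share their interval on chromosome 3 and their 6 read numbers, so they are 1 measurement listed under both symbols.

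Hist1h4i carried the H4 class, with 68.3% of its sum. Its place is chromosome 13, 22040960 to 22041362, on the minus strand. The values were 9.22, 3.80 and 4.19 TPM in the libraries labelled knockout against 3.05, 3.67 and 3.29 TPM in those of wild type, from 110, 42, 41, 26, 46 and 38 reads. The groups did not overlap, but knockout 2 exceeded wild type 2 by little and knockout 1 stood far above the rest. The means were 5.74 ± 3.02 and 3.34 ± 0.314 TPM (SD, n = 3 each), a log2 difference of 0.65 ± 0.33 (SE), with an adjusted p of 1.0 (limma), and 0.26 without knockout 1. It is the 1 upper member for which wild type 3 was not among the 3 highest libraries.

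The scarce H4 genes lay on both sides of 0. Hist1h4d had 14, 5 and 7 reads under the knockout label against 2, 7 and 9 in wild type, with a log2 difference of 0.53 ± 0.45. Hist1h4k had 10, 3 and 1 against 2, 2 and 2 reads, a log2 difference of 0.52 ± 0.54, and -0.07 without knockout 1. Hist1h4f had 0, 0 and 1 against 3, 3 and 1 reads, a log2 difference of -1.36 ± 0.46 (SE), with an unadjusted p of 0.0231 and an adjusted p of 1.0 (limma). In no library did it exceed 3 reads, the number that a count of 0 allows.

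**Figure D2:**
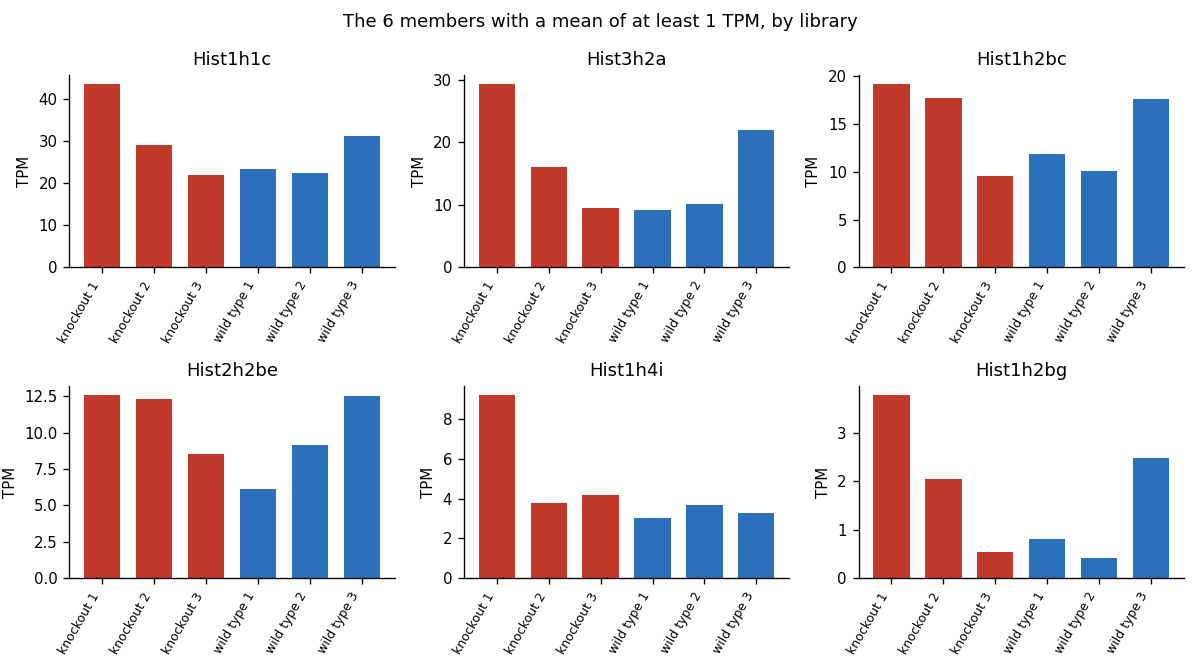
Level in TPM of the 6 clustered histone genes with a mean of at least 1 TPM, 1 bar per library, red for libraries labelled knockout and blue for wild type; each panel has its own axis from 0. Knockout 1 is the highest bar in all 6 panels, and in every panel but that of Hist1h4i the 3 highest bars are knockout 1, knockout 2 and wild type 3.

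Genotype was tested over all genes, and no clustered histone gene passed. At an adjusted p under 0.05, 0 members were higher and 0 lower under the knockout label, with 0.0% of 13722 tested genes called in each direction (limma on log2(TPM + 0.1)). Before adjustment 299 genes had a p under 0.05, and 310 with limma-voom on the recovered reads, which also called 0. Of the 52 members, 34 reached the filter of 0.1 TPM in at least 3 libraries and 18 did not, and none of the 34 reached it through 1 group alone. Among the 34, 20 log2 differences were positive and 14 negative, with a median of 0.22 against 0.00 over all tested genes, of which 51.1% were positive. At an unadjusted p under 0.05 there were 3 members, Hist1h2bb, Hist1h4f and Hist1h3g, or 8.82% of the 34, against 2.18% of all tested genes. The groups did not overlap for 3 members, Hist1h2bb, Hist1h4i and Hist1h3g, again 8.82%, against 5.12% of all tested genes (2.84% higher and 2.27% lower under the knockout label). Both shares rest on 3 genes, and of these 4 different genes Hist1h4i alone had more than 7 reads in a library. The authors' deposited table calls 0.265% of all genes at an adjusted p under 0.05, and 0 of the members, with a lowest adjusted p of 0.462.

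**Figure D3:**
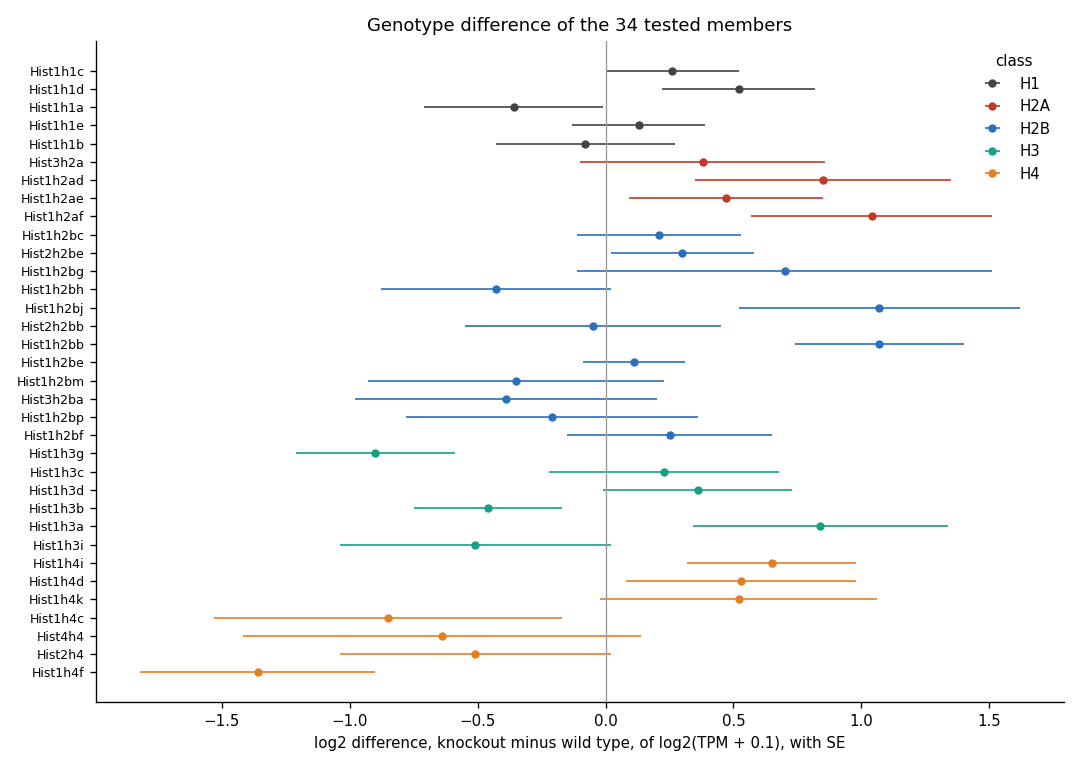
Log2 difference in log2(TPM + 0.1), libraries labelled knockout minus wild type, of the 34 tested members, with bars of 1 SE, coloured by class. The points lie from -1.36 (Hist1h4f) to 1.07 (Hist1h2bb and Hist1h2bj), with 20 above 0 and 14 below.

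All 6 upper members had a positive difference, and knockout 1 was the highest library for each of them. Without knockout 1 the difference was 0.26 for Hist1h4i, 0.20 for Hist2h2be, 0.13 for Hist1h2bg and 0.02 for Hist1h2bc, and it was negative for Hist3h2a and Hist1h1c. Without that library the log2 ratio of the summed TPM of all members was 0.03 in place of 0.31. In the same fit, 19 of the 34 tested members had a negative difference in place of 14. By class the log2 ratio of the summed TPM was 0.25 for H1, 0.45 for H2A, 0.27 for H2B, -0.01 for H3 and 0.44 for H4, and the groups overlapped in every class. The upper members summed to 117, 81.1 and 54.3 TPM in the libraries labelled knockout against 54.4, 55.7 and 88.9 TPM in those of wild type. The 46 scarce members summed to 12.9, 6.34 and 8.26 TPM against 8.53, 6.83 and 7.09 TPM. Knockout 1 was thus the highest library for both sums, while knockout 2 and wild type 3 were high for the upper members alone.

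The scarce members were close to the limit of detection. Of the 46, 45 had at most 14 reads in every library, and 28 had 0 reads in at least 1 library. Over all 6 libraries together they had 1 to 129 reads each, with a median of 11. Between 3 members (knockout 1) and 15 (wild type 2) had 0 reads in a library. Near-identical copies add to the uncertainty. Windows of 50 bases were taken from the part of a member's matched transcript that lies in its counted interval. A median of 55.0% of them for the scarce members and 33.5% for the upper members also occur in another gene. How reads that fit several genes were counted is not given in the sources used here. Among scarce members whose windows are under 10% shared, Hist1h1a, Hist1h1b, Hist2h2bb, Hist2h4 and Hist4h4, none had more than 10 reads in a library.

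The annotated 3′ ends of the transcripts differed between the upper and the scarce members. A poly(A) signal (AATAAA or ATTAAA, strand of the gene) was found in the last 50 bases of the matched transcript for 4 of the 6 upper members, Hist1h1c, Hist3h2a, Hist2h2be and Hist1h4i, and for 8 of the 44 scarce members with a transcript. Annotated sequence after the stop codon had a median of 811 bases for the upper members and 91.5 bases for the scarce ones. The stem-loop was in 4 of the 6 and in 33 of the 44. All 10 members with fewer than 16 annotated bases after the stop codon were scarce, and the stem-loop could not be in their annotated transcripts. The shortest such stretch of an upper member was 200 bases. These comparisons thus depend in part on how far the annotation of each gene runs. Hist1h1c, Hist3h2a and Hist1h4i had both ends annotated, a stem-loop close to the stop codon and a longer transcript that ends with a poly(A) signal. The 8 scarce members with a poly(A) signal had the stem-loop as well, so both ends together were not particular to the upper members. Among these 8, Hist4h4 had 2515 annotated bases after the stop codon and 15 reads over all libraries. The division at 1 TPM was made on the values, so these counts are a description. Other RNAs without a poly(A) tail, named after their values were seen, were at mixed levels: Rpph1, the RNA of RNase P, had 65.5, 11 and 91.3 TPM against 72.8, 37.2 and 17.5 TPM, while Rmrp, the RNA of RNase MRP, had 4 to 12 reads and Terc, the telomerase RNA, at most 1 read in a library. The libraries' retention of RNA without a tail and its part in the low histone level was not tested.

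Several H2A and H2B genes stand back to back and share the stretch between their starts, which allows partners with 1 common promoter region to be compared. There were 6 such pairs with starts at most 500 bases apart; the gaps were 172 to 240 bases. In 4 pairs 1 partner was an upper member and the other had few reads. Hist1h2bc had 14.3 TPM on average from 1822 reads, and its partner Hist1h2ac 0.0853 TPM from 7 reads. Hist3h2a had 16 TPM from 1356 reads and Hist3h2bb-ps, a pseudogene by its name, 0.101 TPM from 8 reads. Hist2h2be had 10.2 TPM from 4422 reads and Hist2h2ac 0.0919 TPM from 7 reads. Hist1h2bg had 1.68 TPM from 131 reads and Hist1h2ae 0.160 TPM from 15 reads. The scarce partners had 0 reads in some libraries, except Hist1h2ae, so no exact ratio is given. The same partner was higher in 6 of 6 libraries in each of these 4 pairs. Partners also differed in the 50-base windows they share with other genes. The share was 0.0% for Hist2h2be and 43.4% for Hist2h2ac, and 47.9% for Hist1h2bc and 66.3% for Hist1h2ac. It lay the other way for Hist1h2bg (68.2%) and Hist1h2ae (55.6%), and Hist3h2bb-ps had no matched transcript. In the matched transcripts the stem-loop, searched without mismatches in the stem, was found for Hist1h2ac and Hist2h2ac and not for their partners. The part of these differences was not tested. In the remaining pairs both partners were scarce, Hist1h2bn with 8 and Hist1h2ak with 3 reads in all, and Hist1h2ad with 15 and Hist1h2bf with 7.

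**Figure D4:**
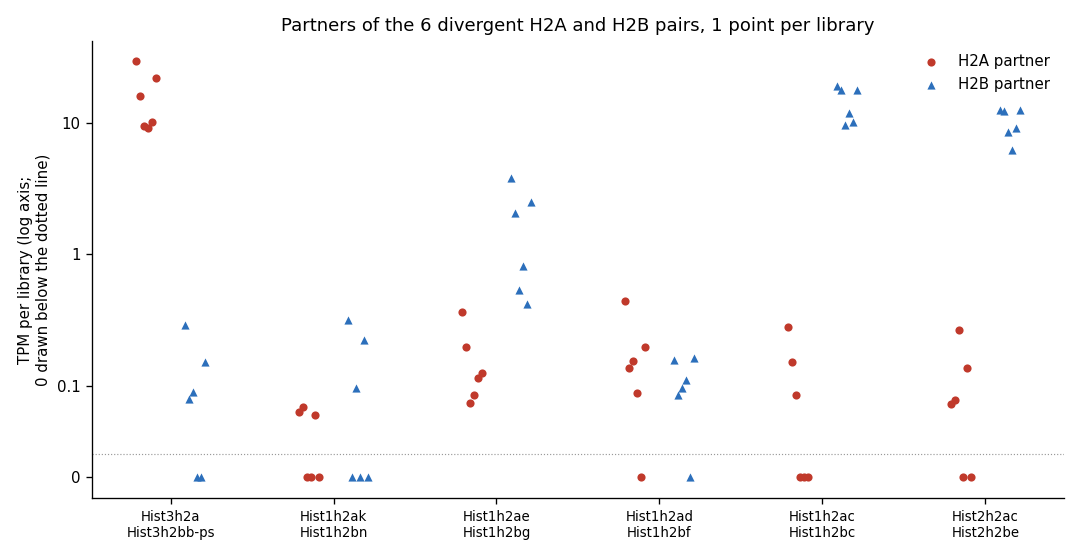
Level in TPM (log axis) of both partners of the 6 divergent H2A and H2B pairs, 1 point per library, red circles for the H2A and blue triangles for the H2B partner, with values of 0 drawn below the dotted line. In 4 pairs the partners lie apart in every library, and the higher partner is H2B in 3 of them.

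The shared stretches of the 4 unequal pairs are shown because both partners have the same sequence at hand. They are from the RefSeq promoter table of GRCm38.p6, on the plus strand, and run from the base after 1 start to the base before the other; capitals mark the motifs CCAAT (bound by NF-Y), TATAAA and ATTTGCAT (the octamer bound by Oct factors), searched on both strands.
Hist3h2bb-ps and Hist3h2a, chr11:58954513-58954684: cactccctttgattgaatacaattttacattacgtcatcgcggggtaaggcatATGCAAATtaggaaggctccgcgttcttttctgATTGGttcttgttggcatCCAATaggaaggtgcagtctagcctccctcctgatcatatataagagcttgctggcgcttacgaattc
Hist1h2ae and Hist1h2bg, chr13:23571221-23571399: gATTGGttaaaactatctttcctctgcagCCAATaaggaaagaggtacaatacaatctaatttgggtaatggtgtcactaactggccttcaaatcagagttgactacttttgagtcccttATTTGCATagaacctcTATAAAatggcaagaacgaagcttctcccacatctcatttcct
Hist1h2ac and Hist1h2bc, chr13:23683960-23684198: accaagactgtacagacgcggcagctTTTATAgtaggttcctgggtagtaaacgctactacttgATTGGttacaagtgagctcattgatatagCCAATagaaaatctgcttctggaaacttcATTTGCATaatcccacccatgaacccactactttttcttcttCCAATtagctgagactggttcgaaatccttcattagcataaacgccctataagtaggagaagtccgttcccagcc
Hist2h2ac and Hist2h2be, chr3:96220881-96221120: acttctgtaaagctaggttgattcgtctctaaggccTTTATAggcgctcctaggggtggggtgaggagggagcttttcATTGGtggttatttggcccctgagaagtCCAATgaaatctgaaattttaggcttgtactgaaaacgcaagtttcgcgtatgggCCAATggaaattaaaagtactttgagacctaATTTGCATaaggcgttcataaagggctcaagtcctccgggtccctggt
In each, the gene named first is on the minus strand and the gene named last on the plus strand. CCAAT was present in all 6 stretches, TATAAA in 3 and ATTTGCAT in the 4 shown and in neither of the others. The 4 shown were picked by level after the values had been seen, so this split of 6 pairs is a description. Among 32851 RefSeq promoters, the 240 bases before the start held CCAAT in 33.0%, TATAAA in 11.9% and ATTTGCAT in 1.56%. A match is a run of letters and not a measured binding site, and the marked motifs do not overlap one another.

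Genes that make and process clustered histone mRNA were all tested, and none passed. Slbp, which encodes the stem-loop binding protein, had 73.2, 69.5 and 77.8 TPM in the libraries labelled knockout against 72.7, 86.5 and 58.0 TPM in those of wild type, with a log2 difference of 0.04 ± 0.15. Npat had 14.7, 16.1 and 17.5 against 18.3, 18.5 and 14.3 TPM, and Casp8ap2, a further component of the histone locus body, 22.8, 25.7 and 30.8 against 26, 30.5 and 21.4 TPM. The groups overlapped for all 3. Lsm10 and Lsm11, subunits of the U7 particle that cuts histone pre-mRNA, had 39.1 to 51.8 and 4.37 to 6.12 TPM, and Sympk, a scaffold of the cleavage complex, differed by -0.14 ± 0.12. Of the 15 genes of histone mRNA production 5 had a positive and 10 a negative difference, with a median of -0.02 and 0 past the threshold.

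Histone genes outside the clusters had a summed level that differed little between libraries. Of 12 in the table, 11 were tested, 5 with a positive and 6 with a negative difference and 0 past the threshold. They summed to 1343, 1296 and 1244 TPM in the libraries labelled knockout against 1377, 1286 and 1251 TPM in those of wild type. H3f3b, a replacement H3 gene, had 525, 508 and 603 against 560, 587 and 479 TPM, and H3f3a 244, 239 and 181 against 264, 189 and 248 TPM. H1f0, a linker histone gene of resting cells, had 49.3, 47.4 and 47.1 against 44.3, 41.3 and 49.0 TPM, above Hist1h1c in each library. Single genes were less even or scarce: H2afv, an H2A.Z gene named after its values were seen, had 58.9, 56.6 and 30.5 against 41.2, 37.9 and 60.2 TPM, and H1fx, H2afy2 and H1foo, also named afterwards, had means under 1 TPM. Of 18 histone chaperone and assembly genes 6 were positive and 12 negative, with a median of -0.06 and 0 past the threshold.

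The summed level of S phase genes was low in the libraries where the upper histone members were high. The 26 S phase genes summed to 2526, 2812 and 3273 TPM in the libraries labelled knockout against 3602, 3737 and 2224 TPM in those of wild type. The 3 libraries with the lowest S phase sums, wild type 3, knockout 1 and knockout 2, were the 3 with the highest sums of the upper members. Pcna, the replication clamp, had 424, 481 and 633 against 728, 632 and 378 TPM, and Mcm6, a subunit of the replicative helicase, 229, 257 and 293 against 305, 344 and 199 TPM. Tk1, thymidine kinase, had another order, 109, 118 and 91.1 against 121, 133 and 102 TPM, and was lowest in knockout 3. By genotype 1 S phase gene had a positive and 25 a negative difference, with a median of -0.12 and 0 past the threshold. The 20 genes of G2 and mitosis had 2 positive and 18 negative differences, with a median of -0.10 and 0 past the threshold, and summed to 2124, 2261 and 2093 against 2486, 2506 and 1964 TPM. Of 10 genes of cell cycle exit 8 were positive and 2 negative, with a median of 0.06 and 0 past the threshold. The order of 6 libraries was read from the values, the libraries also divide along the first principal component in the same way, and the part of cell cycle state in the histone levels was not tested.

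**Figure D5:**
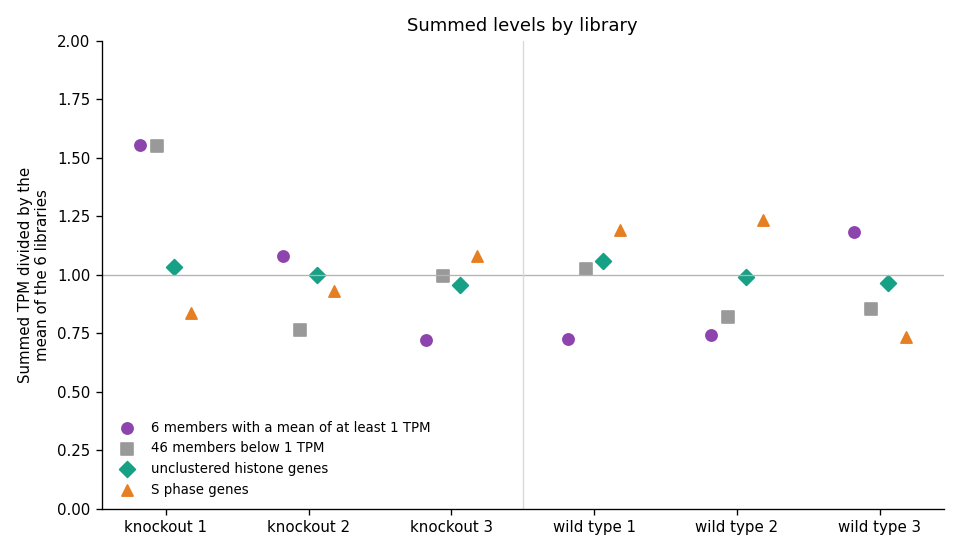
Summed TPM of 4 gene groups in each library, divided by the mean of the 6 libraries: the 6 upper clustered histone genes (purple circles), the 46 scarce ones (grey squares), the unclustered histone genes (green diamonds) and 26 S phase genes (orange triangles). The purple circles are above 1 in knockout 1, knockout 2 and wild type 3, where the orange triangles are below 1, and the green diamonds stay close to 1.

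Markers of other cells were given the same reading, since their share of the RNA could move with a histone value. T and NK cell markers summed to 5.87, 8.24 and 9.21 TPM in the libraries labelled knockout against 4.27, 2.82 and 3.70 TPM in those of wild type, without overlap. Much of this was 1 gene, Nkg7, with 3.99, 4.58 and 5.32 against 3.72, 2.53 and 3.35 TPM. Several of these markers, Cd3e, Gzmb and Il2rb, reached the filter in the libraries labelled knockout alone, so no count of their signs is given. Markers of stroma and endothelium summed to 6.23, 6.25 and 6.21 against 7.23, 8.29 and 9.63 TPM, also without overlap, with 6 of 6 negative. Pecam1 was the largest part, with 4.06, 4.45 and 3.89 against 4.86, 4.21 and 5.08 TPM, and its groups overlapped. Myeloid progenitor markers summed to 221 to 319 TPM, erythroid markers to 646 to 792 TPM and B lineage markers to 54.2 to 111 TPM. Neutrophil markers summed to 8309, 8061 and 7150 against 7452, 5966 and 8713 TPM. For megakaryocyte markers the sums were 1105, 1141 and 784 against 1040, 962 and 1056 TPM. Those of macrophage and monocyte markers were 8752, 8749 and 6878 against 8094, 7312 and 9093 TPM. The groups overlapped for each of these lists. Neutrophil, megakaryocyte and macrophage sums were highest in knockout 1, knockout 2 and wild type 3, as for the upper histone members. Progenitor, erythroid and B lineage sums were ordered otherwise. By genotype 0 of 9 erythroid markers had a positive and 9 a negative difference (median -0.31), as did 1 and 9 of the 10 B lineage markers (median -0.56) and 1 and 4 of the 5 megakaryocyte markers (median -0.31), with 0 past the threshold in each list. Of the erythroid markers, Hba-a1 and Hba-a2, named after their values were seen, have the same reads in every library. They are 1 measurement that the erythroid count and median hold under both symbols. No marker of these lists that the analysed table holds was at 0 in all 6 libraries, and their part in the histone levels was not tested.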

How the data were processed

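RNA of 3 cultures labelled knockout and 3 labelled wild type was measured. The authors deposited 1 table with a TPM value per gene and library, a unit read from the values, which sum to 1000000. Per the file headers, further columns give for each gene the authors' fold change and mean CPM, both as log2 values, the likelihood ratio (a score) and the p-value with its adjusted form. Build mm10 is named in the submitters' processing notes, with the tools edgeR, featureCounts, Subread, Picard 1.127, TopHat2 2.0.12 and FastQC 0.11.2. What each did, how reads were counted and with which annotation is not given in the sources used here, so that antisense and multiply fitting reads cannot be placed.

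Whole reads were recovered from the steps of the TPM values: 100% of 94034 values above 0 came out whole within 0.01 of a read, with the common factor of 194 genes set from the authors' mean log2 CPM. A count of 0 allows 3 reads, or 0.0388 to 0.0573 CPM, which covers counting error only. Genotype was tested with limma 3.58.1 (R 4.3.3) on log2(TPM + 0.1), with a mean-variance trend, two-sided and Benjamini-Hochberg adjusted over the 13722 genes that reached 0.1 TPM in 3 or more libraries. Differences on this log scale understate those of low genes. The p-values speak only for the spread among these samples, and 0.1 is the smallest p that an exact permutation test could give with 3 libraries a group. The procedure was tested on simulated data.

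The members and gene lists were chosen with earlier results of these data known. Named were Cd274 and, per class, the 3 most abundant members, the one with the smallest p and the highest and lowest difference; of each list the 2 most abundant genes, the smallest p and the regulators Npat, Casp8ap2, Slbp, Lsm10 and Lsm11; and partners of divergent pairs. All 52 members matched a RefSeq gene and 46 had a promoter there. Alternatives were other pseudocounts and filters, limma without the trend, limma-voom on the recovered reads, rescaling, a replicate block and leaving out each library. Of the 70 clustered histone genes in GENCODE, 18 were not analysed here.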

Additional observations from a re-analysis of the deposited data

How the results depend on the processing

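The counts of genes and of members past the threshold were 0 under all alternatives that were run (limma and limma-voom), with 168 to 1017 genes at an unadjusted p under 0.05 against 299 as reported and 310 with limma-voom. Same-numbered libraries did not deviate together (correlations of -0.24, -0.15 and -0.53), so the numbers were not taken as pairs; with the replicate block 0 genes passed, 232 had an unadjusted p under 0.05, and 14 of 34 tested members had a negative difference, as without it. With a filter of 1 TPM, 6 members were tested and 0 were negative, and with single libraries left out 10 to 19 of 34 were. Of 293 values of named genes under alternatives 288 kept their sign and side of the threshold. The size of scarce genes moved with the pseudocount: from 1 to 0.01 TPM, Hist1h4f ran from -0.27 to -3.31, Hist1h3a from 0.13 to 2.55 and Hist1h2af from 0.22 to 2.19. Without knockout 1, Hist1h1c was at -0.0044, Hist1h3c at -0.13, Hist1h4k at -0.07 and Hist3h2a at -0.03, and without wild type 3, Hist1h3d was at -0.02; the cause was not tested. The highest values of these genes with a single library left out were 0.49 (Hist1h1c), 0.75 (Hist1h3c), 1.04 (Hist1h4k), 0.78 (Hist3h2a) and 0.57 (Hist1h3d). The log2 ratio of summed TPM with single libraries left out ranged from 0.03 to 0.56 for all members, 0.0032 to 0.47 for H1, 0.05 to 0.84 for H2A, 0.09 to 0.51 for H2B, -0.36 to 0.32 for H3 and -0.01 to 0.67 for H4. Without Hist2h3c1 and Hist2h3c2 it was 0.30 for all members and -0.09 for H3. Rescaling, by factors of 0.985 to 1.01, moved the median of all genes by less than 0.1. Depth limits the scarce members most, with a median of 11 reads over all libraries.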
